A study of Mus musculus with 4 samples.

Results

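The miRNAs described here were mmu-miR-25-3p, mmu-miR-92a-3p, mmu-miR-92b-3p and mmu-miR-93-5p, written below without the species prefix. They were taken by name, and all 4 were listed in both deposited tables, which together held 668 miRNAs, 316 of them in both. The tables covered exosomes from small intestinal epithelium, called SI-Exos, and from serum, of male C57BL/6J mice aged 3 or 18 months kept on standard chow and given no other treatment in the labels. The 4 groups were 3m-SI-Exos, 18m-SI-Exos, 3m-serum-exos and 18m-serum-exos, each represented by 1 small RNA library, so no difference between ages or sources had a replicate check. How many mice gave the RNA of a library was not stated in the sources used here. SI-Exos were spun down from the fluid left when the epithelium was shaken off the everted gut, so vesicles of other cells in that fluid can be among them.

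A miRNA finds its target mRNAs mainly through its seed, bases 2 to 8 from the 5′ end, so miRNAs with 1 seed can repress many of the same genes. miR-25, miR-92a and miR-92b share a seed, whereas miR-93 carries that of miR-17, the family known from cell growth and from repression of cell cycle inhibitors. miR-25 and miR-93 are cut from a single primary transcript that also holds miR-106b. miR-92a comes from the miR-17 to 92 cluster and its relative on the X chromosome, known from dividing cells, blood formation and endothelium. miR-25 and miR-92a are also found in mature red blood cells.

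The mature sequences are shown to compare both seeds, which stand in capitals. They were taken from RefSeq (GRCm38), which held all 4, and were identical to the sequences in the deposited tables.
miR-25-3p: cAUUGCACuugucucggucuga
miR-92a-3p: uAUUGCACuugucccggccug
miR-92b-3p: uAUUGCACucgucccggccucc
miR-93-5p: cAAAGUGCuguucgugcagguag

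Outside the seed, the 3 miRNAs with seed AUUGCAC were also much alike. Positions are counted from 1 at the 5′ end. Over 21 bases, miR-92a-3p and miR-92b-3p were identical at 19 and differed by U10C and G21C, and miR-25-3p and miR-92a-3p were identical at 18 and differed by C1U, U14C and U18C. How reads that fit more than 1 of these sequences were assigned was not given in the sources used here, so the division of reads between miR-92a-3p and miR-92b-3p is uncertain. The relatives with either seed are shown because their reads were added to those of the members in a comparison below.
miR-32-5p: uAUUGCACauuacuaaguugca
miR-363-3p: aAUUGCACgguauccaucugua
miR-17-5p: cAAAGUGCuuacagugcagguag
miR-20a-5p: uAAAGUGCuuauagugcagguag
miR-20b-5p: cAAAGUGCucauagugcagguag
miR-106a-5p: cAAAGUGCuaacagugcagguag
miR-106b-5p: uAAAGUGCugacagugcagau

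In GRCm38, Mir25 lies on chromosome 5 from 138165321 to 138165404 and Mir93 from 138165523 to 138165610, both on the minus strand and 119 bases apart. Both hairpins fall within Mcm7, a gene of a DNA replication helicase subunit, on its own strand. They are intronic in both coding transcripts of Mcm7 that span them and exonic in 1 transcript with a retained intron. Mir106b lies 127 bases from Mir93. miR-92a-3p has a pair of genes with the same mature sequence, whose reads cannot be told apart. Mir92-1 lies on chromosome 14 from 115044427 to 115044506 on the plus strand, in an exon of the non-coding Mir17hg. Mir92-2 lies on chromosome X from 52741838 to 52741928 on the minus strand. Mir92b lies on chromosome 3 from 89227116 to 89227198 on the minus strand, within no other annotated gene and 28 bases from Mtx1. The hairpins of Mir25 and Mir93 are shown with the member in capitals, since reads came almost wholly from that arm, the 3′ arm of Mir25 and the 5′ arm of Mir93.
Mir25: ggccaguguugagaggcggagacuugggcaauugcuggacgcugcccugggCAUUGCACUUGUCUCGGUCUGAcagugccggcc
Mir93: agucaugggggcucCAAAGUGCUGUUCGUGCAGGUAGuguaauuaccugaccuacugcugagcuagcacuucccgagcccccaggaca

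In 3m-serum-exos miR-25-3p had 13844 reads and the opposite arm miR-25-5p 0, and in 18m-serum-exos 14393 and 1. miR-93-5p had 2942 and 6298 reads there and miR-93-3p 2 and 4. Neither opposite arm was listed in the SI-Exos table. miR-92a-1-5p, the opposite arm of Mir92-1, had 4 reads in 3m-SI-Exos, 0 in 18m-SI-Exos and 2 in each serum library.

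The libraries held 212215 (3m-SI-Exos), 71353 (18m-SI-Exos), 832002 (3m-serum-exos) and 778237 (18m-serum-exos) miRNA reads, and counts were scaled to these sums (CPM, reads per 1000000 miRNA reads). A single read was thus 4.71, 14.0, 1.20 and 1.28 CPM. CPM is a share of the miRNA reads, so a lower value can come from less of a miRNA or from more of others. In exosomes, fewer vesicles that carry a miRNA and less of it per vesicle cannot be told apart. The list of intestinal epithelium (miR-192-5p, miR-194-5p, miR-215-5p and miRNAs of the miR-200 family) summed to 267248 CPM in 3m-SI-Exos and 82603 CPM in 18m-SI-Exos, against 16850 and 6603 CPM in serum exosomes, with miR-200b-3p at 0 reads in 18m-SI-Exos and all 8 of its miRNAs found in the other libraries. The list of red blood cells (miR-451a and the miR-144 and miR-486 miRNAs) summed to 6324 and 37882 CPM in SI-Exos and to 219814 and 540212 CPM in serum exosomes, with miR-144-5p at 0 reads in 3m-SI-Exos. miR-122-5p of liver took 384405 CPM of 3m-serum-exos and 26509 CPM of 18m-serum-exos, against 245 and 350 CPM in SI-Exos. The list of platelets and myeloid cells (miR-223-3p and the miR-142a miRNAs) was at 37.7 CPM in 3m-SI-Exos, 322 CPM in 18m-SI-Exos, 666 CPM in 3m-serum-exos and 3012 CPM in 18m-serum-exos.

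The 4 members took 0.576% of the miRNA reads of 3m-SI-Exos (exact 95% interval 0.545 to 0.609%), 0.125% of 18m-SI-Exos (0.1002 to 0.153%), 2.21% of 3m-serum-exos (2.18 to 2.25%) and 3.06% of 18m-serum-exos (3.02 to 3.10%). Serum exosomes thus held more of them at both ages. The members did not share 1 profile. miR-25-3p, miR-93-5p and miR-92a-3p were higher in serum exosomes, and miR-92b-3p was higher in SI-Exos. Intervals, here exact Poisson for levels and exact binomial for shares, cover counting error only.

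miR-25-3p was at 3614 CPM in 3m-SI-Exos (exact 95% interval 3363 to 3879, 767 reads), 378 CPM in 18m-SI-Exos (249 to 551, 27 reads), 16639 CPM in 3m-serum-exos (16363 to 16919, 13844 reads) and 18494 CPM in 18m-serum-exos (18193 to 18799, 14393 reads). No pair of these intervals overlapped, and 18m-SI-Exos was lowest. It was the most abundant member in 3m-SI-Exos and in both serum libraries, and ranked seventh and eighth among all miRNAs of 3m-serum-exos and 18m-serum-exos.

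miR-93-5p was at 1376 CPM in 3m-SI-Exos (1223 to 1543, 292 reads), 98.1 CPM in 18m-SI-Exos (39.4 to 202, 7 reads), 3536 CPM in 3m-serum-exos (3409 to 3666, 2942 reads) and 8093 CPM in 18m-serum-exos (7894 to 8295, 6298 reads). The order of the libraries was that of miR-25-3p, and again no intervals overlapped. The value of 18m-SI-Exos rests on 7 reads.

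miR-92a-3p was at 688 CPM in 3m-SI-Exos (581 to 809, 146 reads) and 547 CPM in 18m-SI-Exos (389 to 747, 39 reads), and these intervals overlapped. It was higher in serum exosomes, with 1947 CPM in 3m-serum-exos (1853 to 2044, 1620 reads) and 3965 CPM in 18m-serum-exos (3827 to 4108, 3086 reads). In 18m-SI-Exos its interval also overlapped that of miR-25-3p, which was far above it in the other 3 libraries.

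miR-92b-3p was the least abundant member in every library except 18m-SI-Exos. It was at 84.8 CPM in 3m-SI-Exos (50.3 to 134, 18 reads), 224 CPM in 18m-SI-Exos (128 to 364, 16 reads), 18.0 CPM in 3m-serum-exos (10.1 to 29.7, 15 reads) and 24.4 CPM in 18m-serum-exos (14.7 to 38.1, 19 reads). The intervals of both ages overlapped in each source, and those of SI-Exos and serum exosomes did not. Its read number was near the same in all 4 libraries although their totals differed, and every statement on it rests on at most 19 reads a library.

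**Figure D1:**
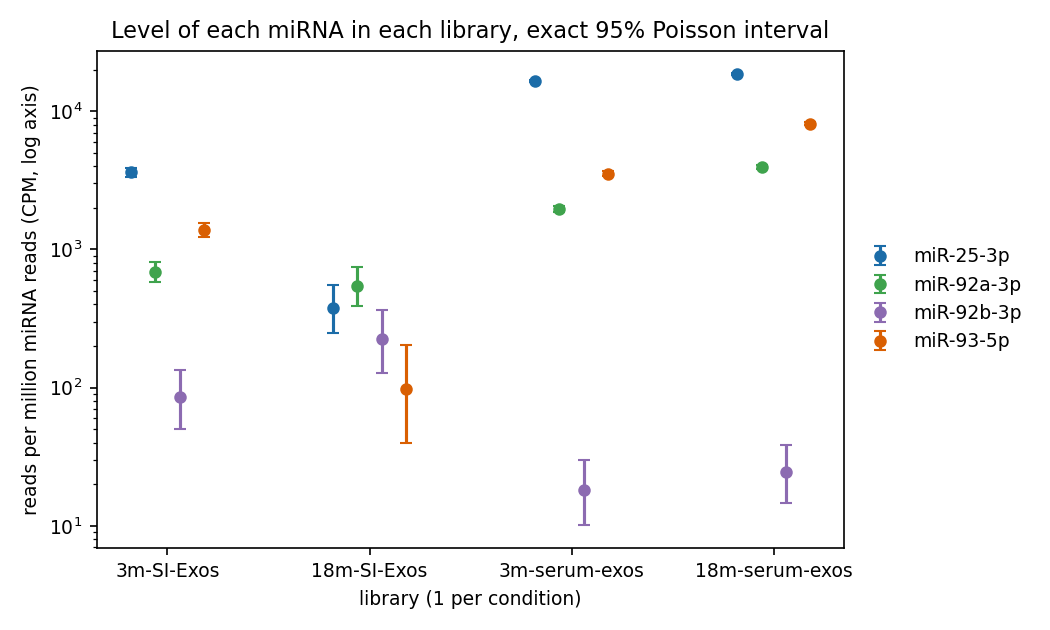
Level of miR-25-3p, miR-92a-3p, miR-92b-3p and miR-93-5p (CPM, log axis) in each of the 4 libraries (horizontal axis), with 1 library per condition. Points are values and bars exact 95% Poisson intervals. miR-25-3p and miR-93-5p are lowest in 18m-SI-Exos (378 and 98.1 CPM) and miR-92b-3p is lowest in both serum libraries (18.0 and 24.4 CPM).

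The comparison of ages asks which miRNAs of exosomes differ between young and aged mice. Only miRNAs reaching 10 reads in either library of a pair entered the count as measured. The age ratio divides the CPM of 3 months by that of 18 months. A call at 3 months, higher or lower, needed an age ratio of 2 or more in that direction, or no read in 1 library, together with an exact 95% interval that did not hold 1. In SI-Exos, 2 of the 4 members were called higher and 1 lower, where 32.7% of the 214 measured miRNAs were called higher and 29.4% lower. The median log2 ratio of the 4 members was 1.77, and that of all measured miRNAs 0.45.

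miR-25-3p and miR-93-5p, from the Mcm7 transcript, were higher in 3m-SI-Exos than in 18m-SI-Exos. miR-106b-5p of the same transcript, with 6 and 1 reads, was not measured. miR-93-5p had a ratio of 14.0 (6.72 to 35.2) and miR-25-3p of 9.55 (6.51 to 14.6). Ranked from the lowest ratio, they stood at 193 and 182 of 214. miR-92a-3p, with the seed of miR-25-3p, stood at 1.26 (0.879 to 1.84), short of a call, and miR-92b-3p was lower at 3 months, with a ratio of 0.378 (0.182 to 0.793). The ratios of miR-92a-3p and of miR-92b-3p depended on the scaling. By the authors' RPM, which is scaled to a larger library total, ratios of this pair were 2.78-fold larger, which made 3.49 for miR-92a-3p, then called higher, and 1.05 for miR-92b-3p, then not called. With DESeq2 size factors the call of miR-92b-3p was lost as well (0.541, 0.260 to 1.13). The miRNA reads were 1.14% of that total in 3m-SI-Exos and 0.411% in 18m-SI-Exos. With the reads of miR-92a-3p and miR-92b-3p added together, an alternative chosen after seeing the data, 2 of the 3 resulting miRNAs were called, both higher.

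The difference among the miRNAs of the shared seed did not depend on the scaling, since it was a ratio of reads within each library. In 3m-SI-Exos there were 0.190 reads of miR-92a-3p per read of miR-25-3p (0.158 to 0.227), and in 18m-SI-Exos 1.44 (0.862 to 2.45). This balance was 7.59-fold larger at 18 months (exact interval of the odds ratio 4.36 to 13.3). In serum exosomes it was 0.117 at 3 months and 0.214 at 18 months, 1.83-fold larger at 18 months (1.72 to 1.96).

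In serum exosomes, 0 of the 4 members were called higher at 3 months and 2 lower, where 18.3% of the 251 measured miRNAs were called higher and 25.9% lower. The median log2 ratio of the members was -0.73, and that of all measured miRNAs -0.38. miR-93-5p had a ratio of 0.437 (0.418 to 0.457), or 2.29-fold higher at 18 months, and miR-92a-3p of 0.491 (0.462 to 0.522), or 2.04-fold higher at 18 months. Neither miR-25-3p, at 0.900 (0.879 to 0.921), nor miR-92b-3p, at 0.738 (0.349 to 1.53), was called. Both calls lay near the threshold of 2. They were lost when the 5 most abundant miRNAs were left out of the totals, which gave 0.573 for miR-93-5p and 0.644 for miR-92a-3p, and the call of miR-92a-3p was also lost with TMM factors, DESeq2 size factors and the authors' RPM. Over all 6 scalings, the ratio of miR-93-5p stayed between 0.437 and 0.573 and that of miR-92a-3p between 0.491 and 0.644, whereas that of miR-25-3p ran from 0.900 to 1.18.

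miR-25-3p and miR-93-5p thus had ratios on opposite sides of 1 in SI-Exos and serum exosomes by CPM. So did miR-92a-3p (1.26 and 0.491), whose interval in SI-Exos held 1. The median log2 ratios of all measured miRNAs, 0.45 and -0.38, were on opposite sides of 0 as well. The ratio in SI-Exos was 32.1-fold that in serum exosomes for miR-93-5p (exact interval 15.4 to 80.6) and 10.6-fold for miR-25-3p (7.23 to 16.2). It was 2.56-fold for miR-92a-3p (1.78 to 3.77) and 0.512-fold for miR-92b-3p (0.178 to 1.48). By totals without the 5 most abundant miRNAs these values were 22.1, 7.29, 1.76 and 0.352, and miR-25-3p then had a ratio above 1 in serum exosomes as well. By the authors' RPM they were 80.4, 26.6, 6.42 and 1.28, so that the value of miR-92b-3p passed to above 1.

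**Figure D2:**
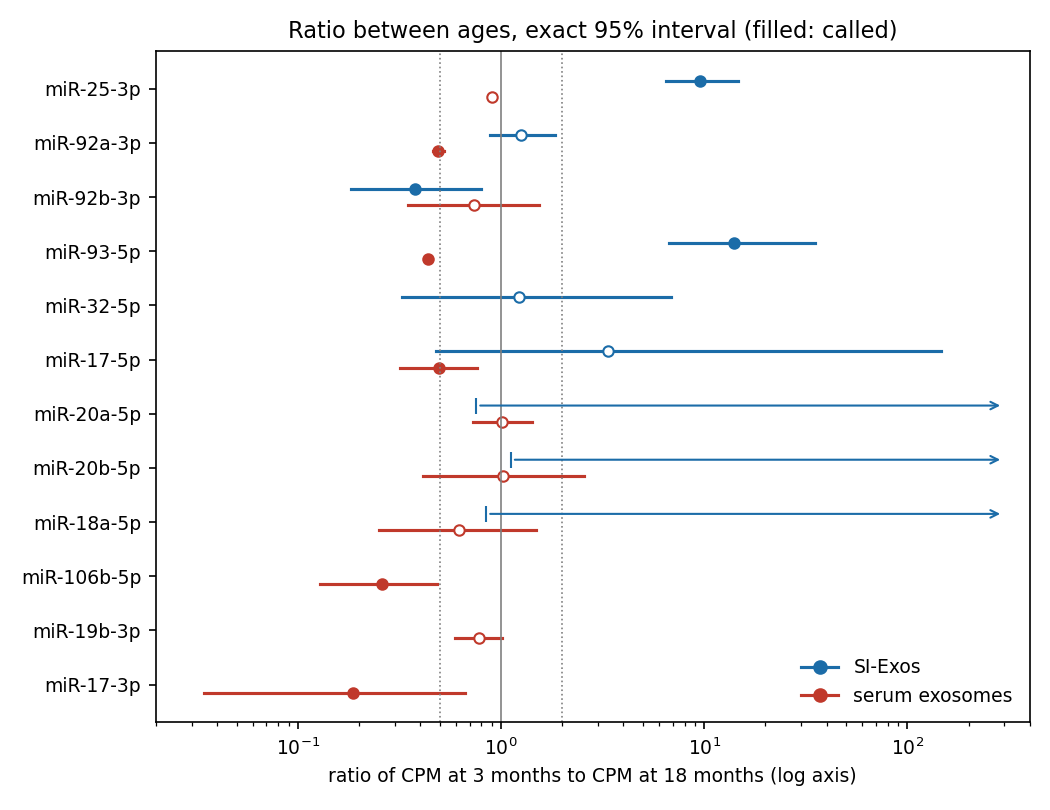
Age ratio, CPM of 3 months divided by that of 18 months (log axis), of the 4 members and of their measured relatives in SI-Exos (blue) and serum exosomes (red), with 1 library per age. Points are ratios, filled where called, bars are exact 95% intervals, and arrows start at the lower limit where the 18-month library had 0 reads (of these miR-20b-5p was called). Dotted lines mark a ratio of 2 either way. miR-93-5p lies at 14.0 in SI-Exos and 0.437 in serum exosomes.

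The marker lists also differed between the ages, some higher and some lower at 18 months. The red blood cell list was at 219814 CPM in 3m-serum-exos and at 540212 CPM in 18m-serum-exos, where miR-93-5p and miR-92a-3p were higher as well, and the platelet and myeloid list was also higher there. Set against the red blood cell list, in a comparison chosen after seeing the data, miR-93-5p had 16.1 reads per 1000 reads of that list in 3m-serum-exos (15.5 to 16.7) and 15.0 in 18m-serum-exos (14.6 to 15.4). miR-92a-3p had 8.86 (8.43 to 9.30) and 7.34 (7.08 to 7.61). For miR-25-3p the values were 75.7 (74.4 to 77.0) and 34.2 (33.7 to 34.8). Per read of this list, then, miR-93-5p was nearly level between the ages, with intervals just apart, and miR-25-3p was lower at 18 months. These are in effect values per read of miR-451a, which gave 179389 of the 182886 list reads in 3m-serum-exos and 408945 of 420413 in 18m-serum-exos. The other miRNAs of the list were also higher at 18 months, but unequally. By CPM, miR-486a-5p was at 3916 and 12653 and miR-144-3p at 126 and 177. The part of red blood cell miRNAs in these ratios was not tested.

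The red blood cell list was at 6324 CPM in 3m-SI-Exos and 37882 CPM in 18m-SI-Exos, while miR-93-5p and miR-25-3p were higher in 3m-SI-Exos. The epithelial list was at 267248 and 82603 CPM. A comparison with this list was not planned either. Per 1000 reads of the epithelial list, miR-25-3p had 13.5 reads in 3m-SI-Exos (12.6 to 14.5) and 4.58 in 18m-SI-Exos (3.02 to 6.67). miR-93-5p had 5.15 (4.57 to 5.78) and 1.19 (0.477 to 2.45). For miR-92a-3p the order was the other way round, with 2.57 (2.17 to 3.03) and 6.62 (4.70 to 9.06), and likewise for miR-92b-3p, with 0.317 (0.188 to 0.502) and 2.71 (1.55 to 4.41). The miRNAs of the list did not move alike, and miR-429-3p alone gave 29084 of its 56714 reads in 3m-SI-Exos. By CPM, miR-215-5p (13100 and 14225) and miR-141-3p (712 and 883) were not lower in 18m-SI-Exos, whereas the others of the list were. Values per epithelial read therefore depend on which miRNAs make up the list. The order also depended on which list was used. Per 1000 reads of the red blood cell list, all 4 members were higher in 3m-SI-Exos than in 18m-SI-Exos. miR-25-3p had 572 and 9.99, miR-93-5p 218 and 2.59, and miR-92a-3p 109 and 14.4. miR-92b-3p had 13.4 (7.92 to 21.3) and 5.92 (3.38 to 9.63), intervals that overlapped. The part of the epithelial miRNAs in these ratios was not tested.

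**Figure D3:**
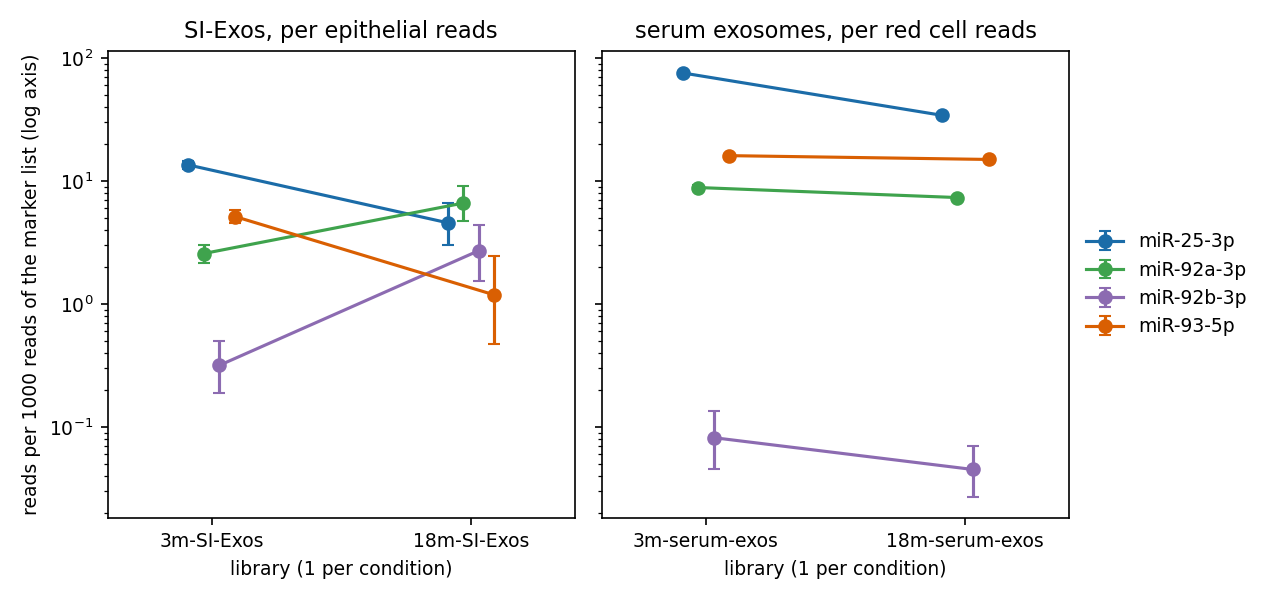
Reads of each member per 1000 reads of a marker list (log axis), of intestinal epithelium in SI-Exos (left) and of red blood cells in serum exosomes (right), at both ages with 1 library each. Points are values and bars exact 95% intervals, and lines join the ages of a miRNA. In SI-Exos miR-25-3p and miR-93-5p are higher at 3 months and miR-92a-3p and miR-92b-3p at 18 months, and in serum exosomes miR-93-5p is at 16.1 and 15.0.

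Both seeds were set against each other within each library as the summed reads of miR-25-3p, miR-92a-3p and miR-92b-3p per read of miR-93-5p. No scaling changes this ratio, and mature lengths of 21 to 23 bases were not corrected for. It was 3.19 in 3m-SI-Exos (2.79 to 3.65, on 931 and 292 reads), 11.7 in 18m-SI-Exos (5.44 to 30.0, on 82 and 7 reads), 5.26 in 3m-serum-exos (5.06 to 5.47, 15479 against 2942 reads) and 2.78 in 18m-serum-exos (2.70 to 2.86, 17498 against 6298 reads). The seed AUUGCAC thus outnumbered AAAGUGC in all 4 libraries. Between the ages, the balance went in opposite directions in both sources. It was 3.67-fold larger at 18 months in SI-Exos (1.68 to 9.52) and 1.89-fold larger at 3 months in serum exosomes (1.80 to 1.99).

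In SI-Exos this shift came with a different makeup of the seed. miR-25-3p was 82.4% of the reads of the 3 miRNAs in 3m-SI-Exos (exact interval 79.8 to 84.8%) and 32.9% in 18m-SI-Exos (22.9 to 44.2%). miR-92a-3p was 15.7% (13.4 to 18.2%) and 47.6% (36.4 to 58.9%), and miR-92b-3p 1.93% (1.15 to 3.04%) and 19.5% (11.6 to 29.7%). In serum exosomes miR-25-3p was 89.4% (88.9 to 89.9%) at 3 months and 82.3% (81.7 to 82.8%) at 18 months, and miR-92b-3p 0.0969% and 0.109%.

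**Figure D4:**
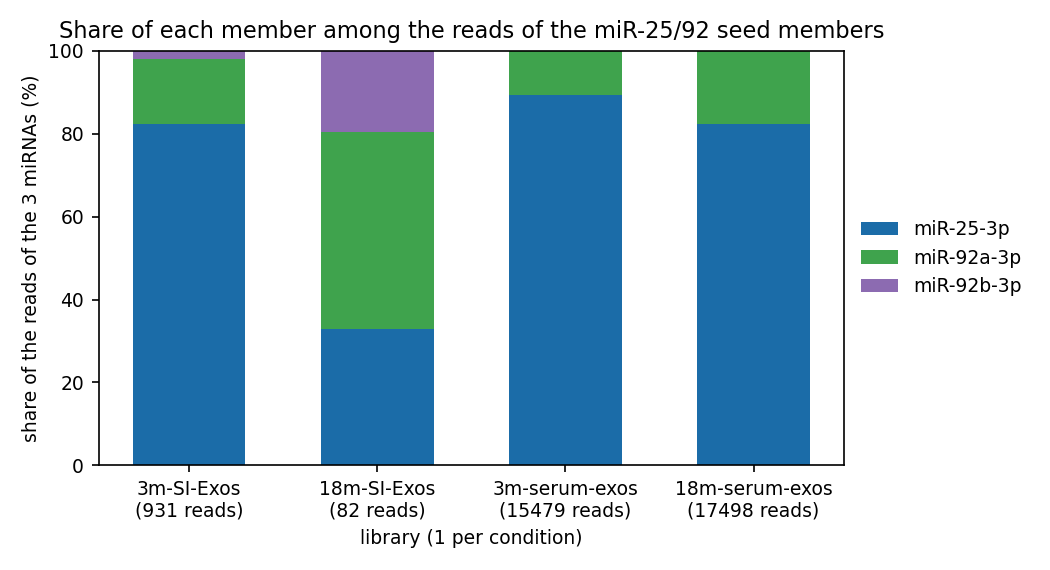
Share of miR-25-3p, miR-92a-3p and miR-92b-3p (percent, bars from 0 to 100) among the reads of these 3 miRNAs in each library, with the reads given under each bar. miR-25-3p makes up 82.4%, 32.9%, 89.4% and 82.3% from left to right, and miR-92b-3p is seen in SI-Exos only at this scale.

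Between miRNAs of the same transcript the age ratio of the balance in SI-Exos was nearer to 1. There were 2.63 reads of miR-25-3p per read of miR-93-5p in 3m-SI-Exos (2.29 to 3.02) and 3.86 in 18m-SI-Exos (1.64 to 10.5), intervals that overlapped, with a ratio of 3 months to 18 months of 0.681 (0.248 to 1.63). In serum exosomes there were 4.71 (4.52 to 4.90) at 3 months and 2.29 (2.22 to 2.35) at 18 months, 2.06-fold larger at 3 months (1.96 to 2.16). A difference in SI-Exos was not detectable on 7 reads of miR-93-5p.

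**Figure D5:**
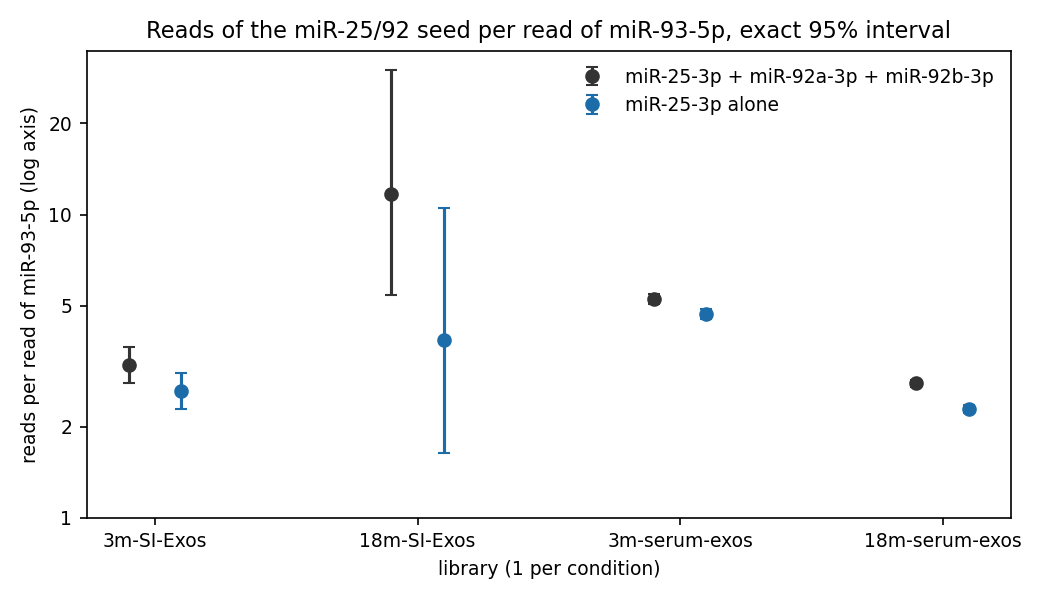
Reads of the miR-25/92 seed per read of miR-93-5p (log axis) in each library, for the 3 members together (black) and for miR-25-3p alone (blue). Points are ratios of reads and bars exact 95% intervals. The 3 members together stand at 3.19 and 11.7 in SI-Exos and at 5.26 and 2.78 in serum exosomes.

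Serum exosomes and SI-Exos were compared at each age over the miRNAs listed in both tables, with the same rule and the ratio of serum exosomes to SI-Exos. Each source is a table and a library of its own, so source and table cannot be told apart. At 3 months, 3 of the 4 members were called higher in serum exosomes and 1 lower, where 28.1% of the 235 measured miRNAs were called higher and 44.3% lower. The ratio was 4.60 for miR-25-3p (4.28 to 4.96), 2.83 for miR-92a-3p (2.39 to 3.38) and 2.57 for miR-93-5p (2.28 to 2.91). miR-92b-3p was 4.70-fold higher in SI-Exos (2.24 to 10.03). CPM gave the lowest ratios of the 5 scalings run between sources, which did not include totals of known miRNAs alone. That scaling shifts every ratio by a factor of 0.985 at 3 months and 0.901 at 18 months. By the authors' RPM the ratios reached 23.8 for miR-25-3p, 14.6 for miR-92a-3p and 13.3 for miR-93-5p. These 3 miRNAs were called higher in serum exosomes with each of the 5.

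At 18 months, again 3 of 4 were called higher in serum exosomes and 1 lower, where 31.2% of the 231 measured miRNAs were called higher and 34.2% lower. The ratio was 82.5 for miR-93-5p (40.01 to 205), 48.9 for miR-25-3p (33.6 to 74.2) and 7.25 for miR-92a-3p (5.29 to 10.2). With 0.5 counts added to each library, miR-93-5p had the highest ratio of all 231 miRNAs, and miR-25-3p ranked 226 of 231 from the lowest. The intervals of these miRNAs overlapped. Ranks also depend on the added counts, since the ratio of a miRNA with 0 reads in 18m-SI-Exos has no upper limit. An example is miR-322-5p, with 366 reads in 18m-serum-exos and 0 in 18m-SI-Exos. miR-92b-3p was 9.18-fold higher in SI-Exos (4.42 to 18.9). Over the 5 scalings the ratio ran from 81.0 to 1067 for miR-93-5p, from 48.0 to 632 for miR-25-3p and from 7.13 to 93.8 for miR-92a-3p, highest by the authors' RPM, with all 3 called higher each time. The pair of near-identical sequences miR-92a-3p and miR-92b-3p therefore stood on opposite sides at both ages by CPM. By reads alone, there were 8.11 reads of miR-92a-3p per read of miR-92b-3p in 3m-SI-Exos (4.96 to 14.1) and 2.44 in 18m-SI-Exos (1.33 to 4.67), against 108 in 3m-serum-exos (65.3 to 193) and 162 in 18m-serum-exos (104 to 270). By the authors' RPM the ratios of miR-92b-3p were 1.10 and 1.41 and it was not called.

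Relatives of the members, a fixed list of 23 miRNAs of both seeds, of the 3 clusters and of the opposite arms, were mostly near the limit of detection. In SI-Exos 12 were listed and 5 measured, of which 1 was called higher at 3 months and 0 lower. Of all 214 measured miRNAs, 32.7% were called higher and 29.4% lower. The called relative was miR-20b-5p, of the seed of miR-17, whose 14 reads in 3m-SI-Exos stood against 0 in 18m-SI-Exos. The exact interval of its ratio had a lower limit of 1.12. The median log2 ratio of the 5 was 2.82 with 0.5 counts added, and 0.30 with 3 reads set in place of 0, where that of all measured miRNAs was also 0.30. miR-32-5p, which shares the seed of miR-25-3p, had 11 and 3 reads and a ratio of 1.23 (0.326 to 6.88), and miR-17-5p had 10 and 1 reads.

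In serum exosomes 16 relatives were listed and 7 measured, of which 0 were called higher at 3 months and 3 lower (median log2 ratio -0.66). Of all 251 measured miRNAs, 18.3% were called higher and 25.9% lower (median log2 ratio -0.38). miR-106b-5p, the third miRNA of the Mcm7 transcript, had 13 reads at 3 months and 47 at 18 months, with a ratio of 0.259 (0.128 to 0.486). miR-17-5p had 34 and 64 reads (0.497, 0.318 to 0.765), and its opposite arm miR-17-3p 3 and 15 reads (0.187, 0.0347 to 0.661). miR-20a-5p, with the seed of miR-93-5p, had 77 and 71 reads and a ratio of 1.01 (0.725 to 1.42). Between the sources at 3 months, 1 of 7 measured relatives was called higher in serum exosomes and 3 lower, against 28.1% and 44.3% of all measured miRNAs. The 3 lower were miR-18a-5p (0.232, 0.0883 to 0.601), miR-20b-5p (0.219, 0.0924 to 0.509) and miR-32-5p (0.0232, 0.00054 to 0.160). Their reads, in this order, were 10, 12 and 1 in serum exosomes and 11, 14 and 11 in SI-Exos. At 18 months 3 of 6 were called higher and 0 lower, against 31.2% and 34.2% of all measured miRNAs. The 3 higher were miR-17-5p (64 reads in serum exosomes and 1 in SI-Exos), miR-20a-5p (71 and 0) and miR-19b-3p (129 and 3).

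The members carried most reads of their seeds in all 4 libraries. Of all listed known miRNAs, 5 had the seed AUUGCAC, and miR-25-3p, miR-92a-3p and miR-92b-3p took 97.9% of their reads in 3m-SI-Exos, 94.3% in 18m-SI-Exos and 99.99% and 99.97% in serum exosomes at 3 and 18 months. The seed AAAGUGC was found in 6, and miR-93-5p took 88.0% of their reads in 3m-SI-Exos, 77.8% in 18m-SI-Exos, 95.6% in 3m-serum-exos and 97.0% in 18m-serum-exos. In 18m-SI-Exos that seed had 9 reads in all.

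The 3 known miRNAs most like each member were found among 223 with at least 10 reads in 1 library, by the largest difference over the 4 libraries between log2 CPM centred on each miRNA's mean. miR-25-3p was nearest to miR-93-5p (0.56), miR-181d-5p (0.60) and miR-322-5p (0.70). miR-93-5p was nearest to miR-181d-5p (0.26), then miR-25-3p (0.56) and miR-322-5p (0.98). Each of miR-25-3p and miR-93-5p was thus among the 3 nearest of the other, while miR-181d-5p and miR-322-5p had 0 reads in 18m-SI-Exos. miR-92a-3p was nearest to miR-27a-3p (0.47), miR-196b-5p (0.52) and miR-16-5p (0.63). miR-92b-3p was nearest to miR-195a-5p (0.21), let-7e-5p (0.46) and miR-497a-5p (0.46). With at least 50 reads in place of 10, only 1 of these 3 stayed on the list of miR-92b-3p, and with 2 counts added 2 of 3 stayed for each of miR-25-3p and miR-92a-3p. With 0.5 counts added and at least 10 reads, no member with the seed AUUGCAC was among the 3 nearest of another member with that seed.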

How the data were processed

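Small RNA of exosomes was sequenced in 4 libraries. Kit and sequencer differ between the labels (MGI, DNBSEQ) and the paper's methods (VAHTS, HiSeq). For each mature miRNA the deposited tables give the authors' read count and RPM, whose library total exceeds the miRNA reads. Bowtie2 2.2.9 and GRCm38 are named in the submitters' processing notes, without mapping options. The deposited fold change, p-value and FDR columns hold the authors' own comparisons and were not used.

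From the counts, CPM, ratios with exact (Clopper-Pearson) 95% intervals and odds ratios with exact conditional intervals were computed in Python 3.11.15 with scipy 1.17.1. No p-value was made, since each condition has 1 library. Members, lists and alternatives were chosen with earlier results of these data known. Named were the 4 members, every listed relative with at least 10 reads in 1 library where it is described, and the 3 miRNAs nearest each member. The rule was tested on simulated counts. Alternatives were TMM (edgeR 4.0.16), DESeq2 1.42.0 size factors, RPM, totals without the 5 most abundant or of known miRNAs, at least 1 or 50 reads, ratios of 1.5 or 4, other members of a seed and 2 added counts. Depth of 71353 to 832002 miRNA reads sets the intervals, and 3 reads were the floor for bounds. RefSeq and GENCODE positions are of GRCm38.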

Additional observations from a re-analysis of the deposited data

Results flagged for a closer look

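miR-93-5p had a ratio of 3 months to 18 months above 1 in SI-Exos and below 1 in serum exosomes, with both intervals away from 1, and the ratio in SI-Exos was 32.1-fold that in serum exosomes. It stood on the same sides with all 6 scalings run. Opposite sides were not particular to miR-93-5p. The median log2 ratio of all measured miRNAs was 0.45 in SI-Exos and -0.38 in serum exosomes. By CPM, let-7f-5p (5.86 and 0.585) also stood on opposite sides with both intervals away from 1, whereas miR-192-5p (3.79 and 3.83) did not. The share of all miRNAs that did so was not counted. For miR-25-3p the directions also differed by CPM, and the ratio in SI-Exos was 10.6-fold that in serum exosomes. With TMM factors and with totals without the 5 most abundant miRNAs, its ratio in serum exosomes was 1.03 and 1.18, on the side of SI-Exos. The reads of the miR-25/92 seed per read of miR-93-5p had an age ratio of 0.272 in SI-Exos and 1.89 in serum exosomes, whose quotient was 0.144. With 1 library per age and source, none of these differences was tested over samples.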

How the results depend on the processing

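With 1 library per condition no library could be left out, and no paired analysis was possible because no group has a replicate. Of the 3 members called between ages in SI-Exos, miR-25-3p and miR-93-5p were called with all 6 scalings, whereas the call of miR-92b-3p was lost with DESeq2 size factors, RPM, at least 50 reads or a ratio of at least 4, and RPM added miR-92a-3p. In serum exosomes the 2 called members became 1 with TMM, DESeq2 size factors or RPM. They became 0 at a ratio of at least 4, or with the 5 most abundant miRNAs left out of the totals. Of the 4 called between sources at 3 months, 2 had a ratio of at least 4. By RPM, miR-92b-3p reversed to 1.05 for 3 over 18 months in SI-Exos and to 1.10 and 1.41 for serum exosomes over SI-Exos at 3 and 18 months. Over all listed miRNAs of both seeds, the balance was 5.03 in 3m-serum-exos and 2.70 in 18m-serum-exos. With miR-25-3p alone for its seed, the age ratio of the balance was 0.681 in SI-Exos and 2.06 in serum exosomes. The causes were not tested beyond the scaling itself, which shifts each ratio of a pair by 1 factor, by 1.47 (log2) in SI-Exos for RPM and by 0.39 in serum exosomes when the 5 most abundant are left out. Of the 46 values of counts and balances under alternatives, 10 moved, by over 1.5 times for a count and beyond the exact interval of the reported value for a balance. Counts were scored by the number called alone. A change of member or direction at the same number, as by RPM between ages in SI-Exos, was thus not scored as moved. Of the 80 values of single ratios and nearest lists, 37 moved and 3 reversed. The 7 reads of miR-93-5p in 18m-SI-Exos and the 15 to 19 reads of miR-92b-3p limit what depth can show.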

Other observations

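The miRNAs of the Mir17hg transcript on chromosome 14 differed widely in reads within a library. In 3m-serum-exos miR-92a-3p, which also has a gene on chromosome X, had 1620 reads, miR-19b-3p, which has one there too, 107, miR-20a-5p 77, miR-17-5p 34, miR-18a-5p 10 and miR-19a-3p 2. In 3m-SI-Exos miR-92a-3p had 146 reads, while the others had 3 to 11, with miR-18a-5p at 11 and miR-19b-3p at 3. In 18m-SI-Exos miR-92a-3p had 39 reads, miR-19b-3p 3, miR-17-5p 1 and the other 3 had 0 reads each, with an exact upper limit of 51.7 CPM. miR-19b-3p was called higher in serum exosomes than in SI-Exos at both ages, whereas miR-18a-5p was called lower at 3 months (0.232). The ratios of miR-19b-3p were 9.10 (exact interval 3.03 to 44.8) and 3.94 (1.32 to 19.4).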
